A study of Saccharomyces cerevisiae with 40 samples.

Results

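RNA made during a 24 min pulse of 4-thiouracil (4tU) was compared between *def1Δ* cells and WT cells of the budding yeast *Saccharomyces cerevisiae*. The comparison was chosen by its labels and used 4 of the 40 samples of the series, the 2 *def1Δ* and the 2 WT libraries of labeled RNA at 24 min. Of the 7127 genes listed, 6174 had at least 15 counts over the 4 libraries and were tested, while 953 fell below that number. Both strains were haploid W303 cells, which the study's strain list gives as mating type α, grown in rich medium with glucose to log phase. The *def1Δ* strain had *DEF1* replaced by a KanMX cassette, and both strains carried the auxotrophic marker alleles of W303. The cells of all 4 libraries had also been exposed to 4tU, so no library shows a cell without it. The labels number the replicates but do not say whether they were separate cultures, while the study calls those at each labeling time biological replicates. The p-values set the strain difference against the spread between the 2 libraries of each strain.

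Def1 (Degradation factor 1) takes part in the ubiquitylation and degradation of Rpb1, the largest subunit of RNA polymerase II, when the polymerase stalls on damaged or difficult templates. It also acts in transcription initiation and elongation. In RATE-Seq, cells take up 4tU and place it in new RNA in place of uracil. The labeled RNA is then linked to biotin, captured on streptavidin beads and sequenced. A pulse of 24 min collects RNA that was made, and not yet degraded, within that time, so a level in the captured pool reflects synthesis and decay together. The values are levels relative to the rest of the captured RNA of the same library.

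The *def1Δ* libraries held 11695465 and 15623449 counts, and the WT libraries held 10614450 and 8041435. Levels are given below as normalised CPM (counts scaled to a common library size), after scaling by edgeR's TMM method. Across the genes tested, Pearson's r of log2 CPM was 0.985 between the *def1Δ* replicates, 0.982 between the WT replicates and 0.902 to 0.925 between a *def1Δ* and a WT library. Replicates were further apart than counting noise, for chi-square divided by the number of genes was 31.9 in *def1Δ* and 11.8 in WT. The WT libraries at 24 min stood apart from those at 6, 9 and 90 min. On the scale of all 16 labeled libraries at these times, 460 of 6174 genes (7.45%) were higher in both *def1Δ* libraries at 24 min than in any of the other 6 *def1Δ* libraries, and 418 (6.77%) were lower. In WT the same counts were 974 (15.8%) and 1442 (23.4%). Whether something other than the labeling time set the WT cultures at 24 min apart was not tested. Counts of genes whose fold change differed between times are given beside gene groups below.

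*DEF1* (YKL054C, chromosome XI, 336537 to 338753, minus strand, R64 assembly) had 0 counts in either *def1Δ* library, against 2378 and 1866 counts in WT, which are 241 and 250 CPM. With 3 counts over the *def1Δ* libraries taken as the limit that a count of 0 allows, *DEF1* was at least 2417-fold lower in *def1Δ*. The values of *DEF1* match the labels of all 4 libraries. The markers of mating type went against the strain list in both strains. *STE2*, the α-factor receptor that a cells carry, had 686 and 679 CPM in *def1Δ* and 868 and 807 CPM in WT, while *STE3*, the a-factor receptor that α cells carry, had 2.29 and 1.50 CPM in *def1Δ* and 8.11 and 9.51 CPM in WT. On the scale of all 16 labeled libraries the 10 a-specific genes summed to 1506 and 1567 CPM in *def1Δ* and 1648 and 1526 CPM in WT at 24 min, and the 6 α-specific genes tested summed to 66.5 and 55.6 CPM in *def1Δ* and 255 and 275 CPM in WT. Of the defining genes, *MFA1*, an a-factor gene, was at 0.404 CPM or less in *def1Δ* and 0.670 CPM or less in WT, and the α-factor gene *MF(ALPHA)1* had too few counts to be tested. The *DEF1* neighbour *OAR1* (YKL055C), a mitochondrial fatty acid synthesis enzyme, had 21.8 and 23.0 CPM in *def1Δ* and 8.72 and 7.90 CPM in WT. This was a log2 fold change, *def1Δ* over WT, of 1.42 ± 0.19 (SE, adjusted p = 1.15e-06, edgeR's quasi-likelihood test). On the other side of *DEF1*, *MDM35* (YKL053C-A), a mitochondrial intermembrane space protein, had 9.90 and 12.9 CPM in *def1Δ* against 20.4 and 25.8 CPM in WT.

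Genes counted as called, by the cutoffs of the study, had a log2 fold change beyond 1 in either direction and an adjusted p below 0.01. By this rule 1804 of 6174 genes (29.2%) differed at 24 min, 953 of them higher in *def1Δ* (15.4%) and 851 lower (13.8%). The *def1Δ* libraries both lay above the WT libraries for 2656 genes (43.0%) and both lay below them for 2449 genes (39.7%), and 5 of the called genes overlapped between the strains. These counts depend on the scaling. TMM set the median log2 fold change of all genes at 0.02, library totals alone put it at 0.24 with 1308 genes higher and 594 lower, and the factors recovered from the *Schizosaccharomyces pombe* RNA added to each sample put it at 1.05 with 1826 higher and 52 lower. All changes below are therefore relative to the other labeled RNA.

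**Figure D1:**
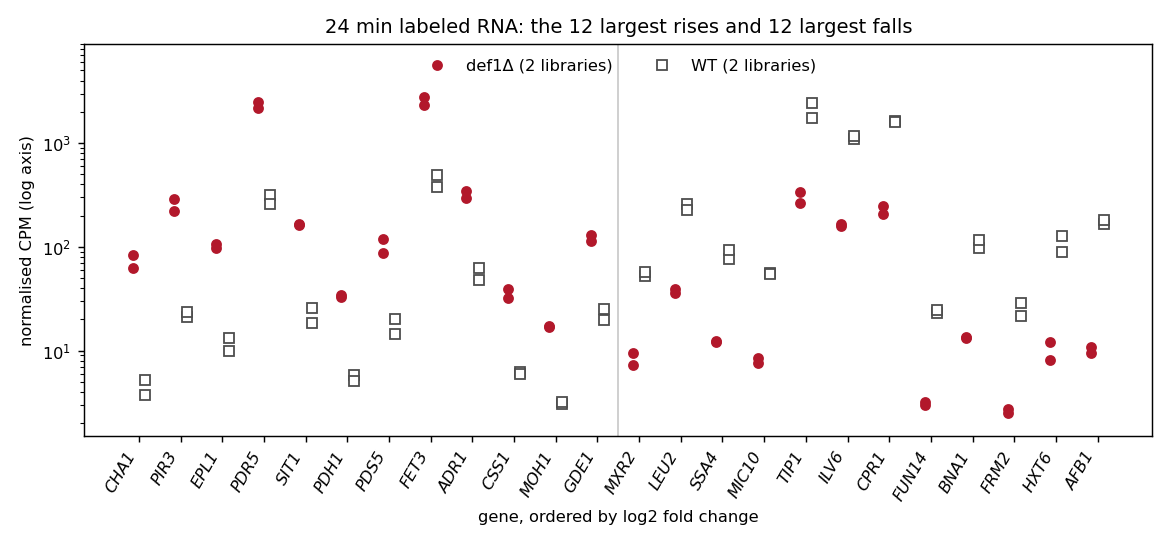
Normalised CPM (log axis) of the 12 called protein-coding genes with the largest rise (left of the line) and the 12 with the largest fall (right of it), ordered by log2 fold change; red circles are the 2 *def1Δ* libraries and open squares the 2 WT libraries at 24 min. The circles and squares of each gene are well apart, from *CHA1* at 62.0 and 84.4 CPM in *def1Δ* against 5.17 and 3.75 CPM in WT to *AFB1* at 10.8 and 9.47 CPM in *def1Δ* against 167 and 181 CPM in WT.

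The largest rise among well-measured genes was that of *CHA1* (YCL064C, chromosome III, 15798 to 16880, minus strand), which encodes the catabolic serine and threonine deaminase. It had 62.0 and 84.4 CPM in *def1Δ*, against 5.17 and 3.75 CPM in WT, a log2 fold change of 4.01 ± 0.21 (adjusted p = 1.61e-12). *PIR3* (chromosome XI, 144401 to 145378), a cell wall glycoprotein, had 290 and 224 CPM in *def1Δ* and 21.1 and 23.7 CPM in WT. *EPL1* (chromosome VI, 87847 to 90345), a subunit of the NuA4 histone acetyltransferase, had 106 and 97.7 CPM in *def1Δ* and 9.94 and 13.4 CPM in WT. For these 3 genes the lowest *def1Δ* library was several times above the highest WT library, and the log2 fold changes of *PIR3* and *EPL1* were 3.52 ± 0.17 and 3.14 ± 0.16. The next were *PDR5*, the main drug efflux pump of the plasma membrane (3.02 ± 0.15), and *SIT1*, a transporter of iron-bearing siderophores (2.88 ± 0.16). *PDH1*, which acts in propionate metabolism, rose by 2.60 ± 0.19. *PDS5*, a cohesin regulator, and *FET3*, the copper oxidase of high-affinity iron uptake, each rose by 2.55, with SE of 0.18 and 0.16. *ADR1*, the activator of genes for ethanol and fatty acid use, had 345 and 299 CPM in *def1Δ* and 62.1 and 48.2 CPM in WT (2.54 ± 0.16). *CSS1*, *MOH1* and *GDE1*, the last a glycerophosphocholine phosphodiesterase, closed the list at 2.52, 2.44 and 2.44. With the study's *S. pombe* factors the log2 fold change of *CHA1* was 5.02.

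The largest fall was that of *AFB1* (YLR040C, chromosome XII, 228908 to 229582, minus strand), which encodes the secreted a-factor barrier of α cells. It had 10.8 and 9.47 CPM in *def1Δ*, against 167 and 181 CPM in WT (log2 fold change −4.11 ± 0.16, adjusted p = 1.19e-14). *HXT6*, a high-affinity hexose transporter, had 8.10 and 12.1 CPM in *def1Δ* and 90.2 and 127 CPM in WT. Its near-identical neighbour *HXT7* had 1103 and 1195 CPM in *def1Δ* and 2405 and 2292 CPM in WT, and the division of reads between the pair is uncertain. *BNA1*, an enzyme of NAD synthesis, fell to 13.7 and 13.1 CPM in *def1Δ*, against 98.3 and 118 CPM in WT (−3.01 ± 0.15). *CPR1*, the cytosolic cyclophilin, had 208 and 246 CPM in *def1Δ* and 1615 and 1592 CPM in WT (−2.82 ± 0.15). *TIP1*, a cell wall mannoprotein, had 335 and 267 CPM in *def1Δ* and 1724 and 2417 CPM in WT, and *SSA4*, a stress-induced Hsp70 chaperone, had 12.0 and 12.5 CPM in *def1Δ* and 75.6 and 92.8 CPM in WT. In each of these the strains were far apart and the replicates close. The other 6 of the 12 all lie on chromosome III or chromosome I. They were *FRM2* (−3.24), *ILV6* (−2.79), *MIC10* (−2.78), *LEU2* (−2.70) and *MXR2* (−2.69) on III and *FUN14* (−2.92) on I. *ILV6*, the regulatory subunit of acetolactate synthase, had 160 and 167 CPM in *def1Δ* and 1096 and 1165 CPM in WT.

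Chromosomes I and III were lower as wholes in *def1Δ*. The median log2 fold change was −0.90 over the 85 ORFs of chromosome I and −1.13 over the 155 ORFs of chromosome III, against 0.11 over the 5460 ORFs of the other 14 nuclear chromosomes, whose own medians lay between −0.09 and 0.25. On chromosome I 38 ORFs were lower and 1 was higher, and on chromosome III 78 were lower and 2 were higher, where the background was 15.4% higher and 13.8% lower. The 3 exceptions were *SWH1* on I (1.32 ± 0.15) and *CHA1* and *RSA4* on III (*RSA4* 1.21 ± 0.15). Of the 851 lower genes, 120 (14.1%) came from these chromosomes. The shift ran along each chromosome: in 4 equal blocks of neighbouring genes on chromosome I the medians were −1.61, −0.72, −0.98 and −0.58, and in 4 such blocks on chromosome III they were −0.995, −1.17, −1.14 and −1.14.

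The shift was also in the share of counts. Of all counts on nuclear ORFs, chromosome III held 1.41 and 1.42% in the *def1Δ* libraries, against 3.33 and 3.05% in WT, and chromosome I held 0.957 and 0.950% in *def1Δ*, against 1.99 and 1.97% in WT. Among abundant transcripts there, *PGK1*, the glycolytic phosphoglycerate kinase on III, had 2405 and 2411 CPM in *def1Δ* and 10738 and 9168 CPM in WT (log2 fold change −2.05 ± 0.13). *CDC19*, the main pyruvate kinase on I, had 3644 and 3394 CPM in *def1Δ* and 8099 and 8203 CPM in WT (−1.21 ± 0.13). *CYS3* on I, an enzyme of cysteine synthesis, fell by 1.81 ± 0.14 on the log2 scale. *PDI1* on III, the protein disulfide isomerase of the endoplasmic reticulum, fell by 1.54 ± 0.13. All 4 were lower in both *def1Δ* libraries than in either WT library.

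Chromosomes I and III were lower at the other labeling times as well, with medians on I of −0.93 at 6 min, −0.83 at 9 min and −0.87 at 90 min, and on III of −1.14, −1.07 and −1.01. In the input RNA of ribosome profiling, a separate set of libraries, the medians of *def1Δ* over WT were −0.96 on I and −0.97 on III, while those of *dhh1Δ* over WT were −0.03 on both. In total RNA of the 2 strains they were 0.02 on I and −0.05 on III. The comparisons of labeled RNA have no libraries in common, but all come from the same pair of strains. The number of copies of each chromosome was not measured here and its part in these values was not tested. Below, genes on these chromosomes are named as such.

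**Figure D2:**
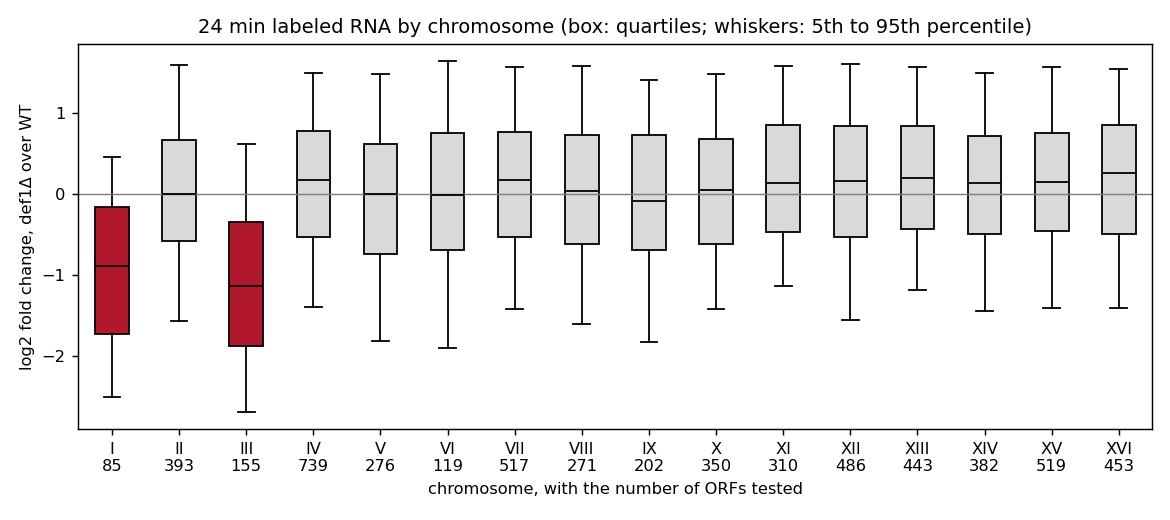
Log2 fold change, *def1Δ* over WT, of the nuclear ORFs tested at 24 min on each of the 16 nuclear chromosomes (boxes, quartiles with the median; whiskers, 5th to 95th percentile; number of ORFs below each name). The boxes of chromosomes I and III (red), with medians of −0.90 and −1.13, sit below those of the others, whose medians are between −0.09 and 0.25.

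Long genes were higher and short genes lower in *def1Δ*. Outside chromosomes I and III, the median log2 fold change was −1.06 for the 193 ORFs of up to 300 bases, −0.82 for the 531 of 300 to 500 bases and −0.52 for the 680 of 500 to 750 bases. It was 0.15 for the 1238 ORFs of 1000 to 1500 bases, 0.86 for the 772 of 2000 to 3000 bases, 1.13 for the 268 of 3000 to 4000 bases and 1.04 for the 225 longer ones. In the shortest class 87 ORFs were lower and 4 higher, and in that of 3000 to 4000 bases 150 were higher and none was lower. The median ORF length was 2358 bases among genes called higher, 597 bases among genes called lower and 1182 bases among those not called. Across 5460 ORFs, Spearman's rho of log2 fold change with length was 0.65. This is a description across genes that share the 4 libraries.

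The trend was about as strong at 6 min (rho 0.60) and 9 min (0.64), weaker at 90 min (0.30) and in total RNA (0.29), and near 0 in input RNA (0.05). Each pair of a *def1Δ* with a WT library showed it, with medians between −1.21 and −0.85 in the shortest class and between 0.98 and 1.27 at 3000 to 4000 bases. Content of T, the base at which 4tU is placed, varied little between the classes, with medians between 26.4 and 28.3%. Within a class the fold change was lower where T content was higher. Among ORFs of 1000 to 1500 bases, the third richest in T had a median log2 fold change of −0.15 and the third poorest in T had 0.40, and the order was the same in each of the 9 classes, although in the longest class the medians were 1.00 and 1.01. Fragment size, capture and read assignment by length are not given per library, and their part in the trend was not tested. When the trend was taken out of each library with an offset by length and chromosomes I and III were left out, 296 of 5570 genes (5.31%) were higher and 392 (7.04%) lower. Of the 1599 called genes that could be fitted this way, 477 kept their call in the same direction. This setting was added after the data had been seen. It is given below, as the length-adjusted value, beside results that it changed.

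**Figure D3:**
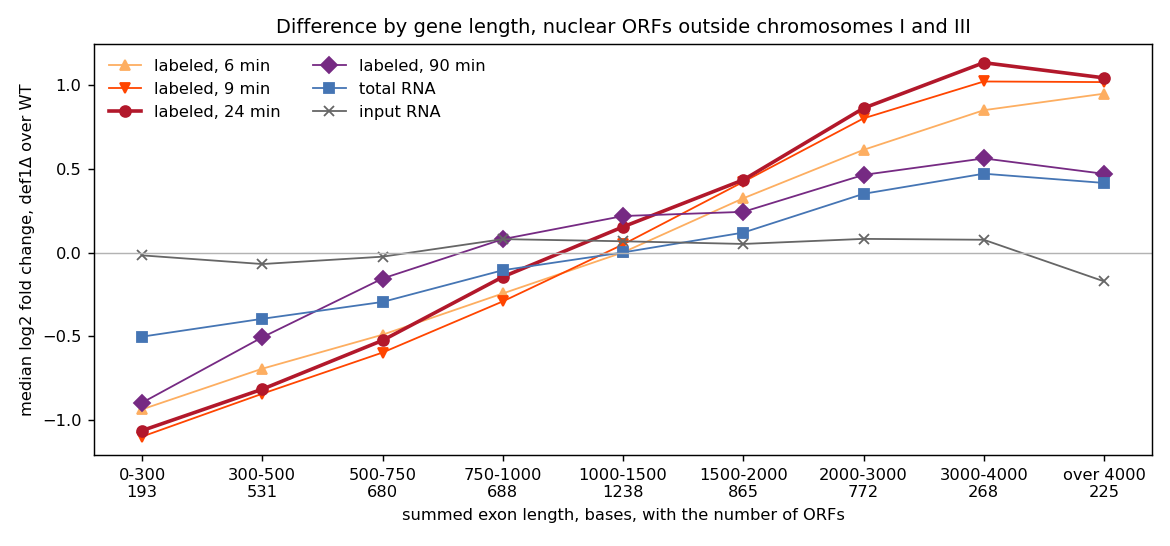
Median log2 fold change, *def1Δ* over WT, by class of ORF length (summed exon length in bases, number of ORFs below) outside chromosomes I and III. The line for labeled RNA at 24 min (thick red) climbs from −1.06 in the shortest class to 1.13 at 3000 to 4000 bases, those for 6 and 9 min run close to it, those for 90 min and total RNA are flatter, and that for input RNA lies near 0.

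**Figure D4:**
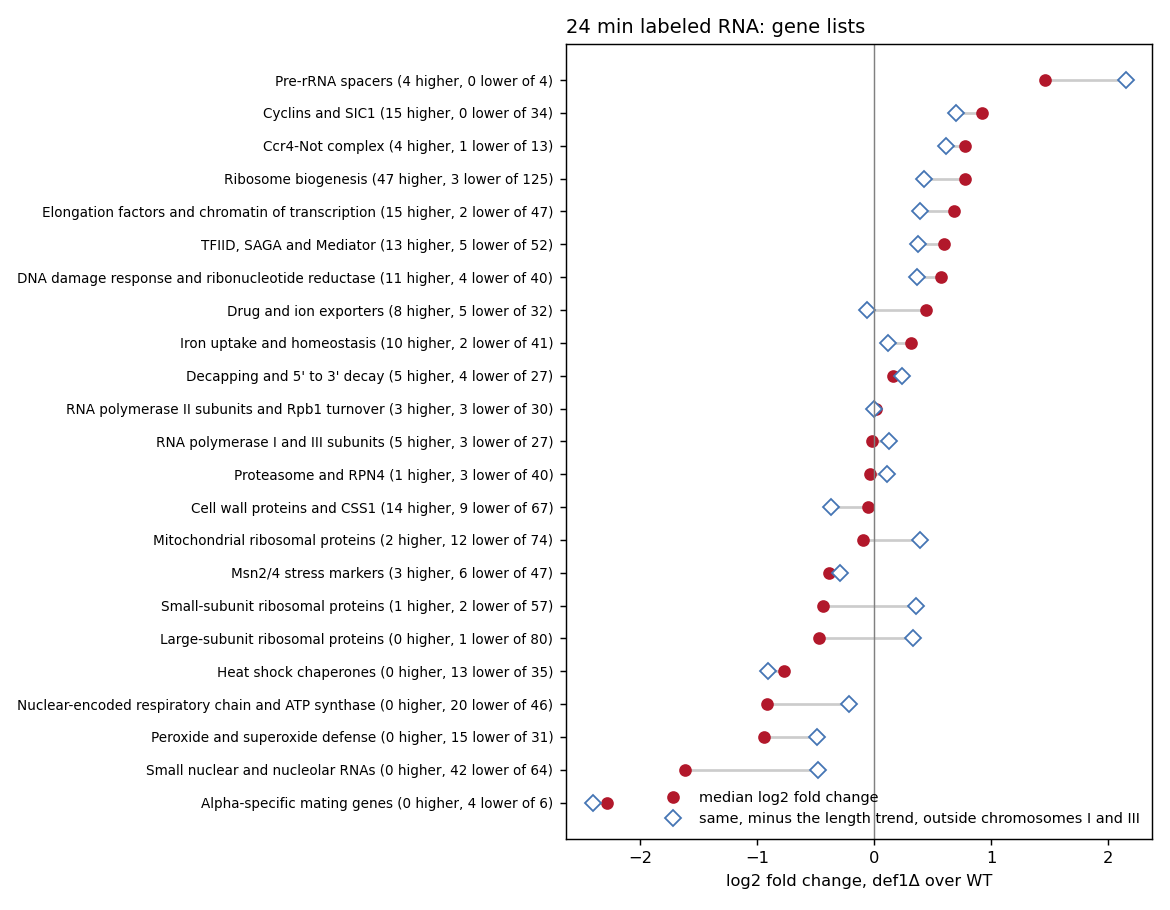
Median log2 fold change, *def1Δ* over WT, of 23 gene lists at 24 min (red circles), with the same median after the length trend of nuclear ORFs was subtracted and genes on chromosomes I and III left out (blue diamonds). Heat shock chaperones stay below 0 in both values (−0.77 and −0.91), while ribosomal proteins of both subunits cross 0 (large subunit −0.47 and 0.33).

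Small nuclear and nucleolar RNAs were lower in *def1Δ*. They guide the modification and cleavage of rRNA or form the spliceosome, and they took up 2.97 and 3.79% of all labeled counts in *def1Δ*, against 9.49 and 9.74% in WT. Of 66 tested, 44 were lower and none was higher (background 13.8% lower), with a median log2 fold change of −1.57. Their summed level was 28391 and 34231 CPM in *def1Δ* and 102151 and 104862 CPM in WT. The classes, sorted after the values had been seen, differed. Of the H/ACA RNAs, which guide pseudouridylation, 27 of 29 were lower (median −1.81), and of the spliceosomal RNAs 6 of 6 were lower (median −1.50). Of the C/D RNAs, which guide 2′-O-methylation, 11 of 31 were lower (median −0.80), among them 7 of 7 with at least 150 bases and 4 of 24 shorter ones. Of RNAs of any class, 38 of 40 with at least 150 bases were lower and 5 of 25 shorter ones were. After the length adjustment described above, 12 of 59 on the list of these RNAs were lower and 3 higher (background 7.04 and 5.31%). Size and class go together here, and their parts were not told apart.

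Sequences of a guide RNA that fell and one that was not called are shown as examples of what 4tU can label. Capitals mark T, the possible sites of 4tU, in the R64 assembly. *SNR49*, an H/ACA RNA, spans chrXIV:716120-716284 on the plus strand and has 62 T in 165 bases (37.6%).
SNR49: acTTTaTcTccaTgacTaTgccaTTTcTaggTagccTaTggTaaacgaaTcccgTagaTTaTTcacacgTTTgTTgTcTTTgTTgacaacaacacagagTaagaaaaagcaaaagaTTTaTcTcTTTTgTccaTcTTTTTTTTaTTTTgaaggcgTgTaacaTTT
*SNR40*, a C/D RNA, spans chrXIV:89210-89306 on the plus strand and has 23 T in 97 bases (23.7%).
SNR40: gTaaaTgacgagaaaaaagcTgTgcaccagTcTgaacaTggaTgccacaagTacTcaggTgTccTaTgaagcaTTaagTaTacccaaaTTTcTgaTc
*SNR49* had 25.8 and 31.0 CPM in *def1Δ*, against 212 and 208 CPM in WT (log2 fold change −2.88 ± 0.15, adjusted p = 1.61e-12). *SNR40* had 279 and 362 CPM in *def1Δ* and 305 and 661 CPM in WT, which overlap, and was not called (−0.59 ± 0.22). The pair was chosen after its values were seen, and its order by T does not hold for all of these RNAs. *SNR13*, with 40.3% T, was not called (−0.95 ± 0.15), and *SNR81*, with 22.9% T, was lower (−1.28 ± 0.18). Other large falls were those of *SNR17B*, a copy of the U3 RNA (537 and 741 CPM in *def1Δ*, 4080 and 4556 CPM in WT), and *SNR11* (343 and 464 CPM in *def1Δ*, 2557 and 2272 CPM in WT). *SNR45* fell by 2.52 ± 0.17 on the log2 scale. *SNR33* and *SNR43* fell by 2.90 and 2.45, and both lie on chromosome III.

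Some other noncoding RNAs were lower too. Of 10 tested on a list of such RNAs, 5 were lower, 1 was higher and 4 were not called (background 13.8% lower and 15.4% higher). Log2 fold changes on that list ran from −2.14 to 1.85. In the length-adjusted fit 4 of 9 were lower and 2 higher (background 7.04 and 5.31%). *SCR1*, the RNA of the signal recognition particle, had 16230 and 20553 CPM in *def1Δ*, against 58787 and 53370 CPM in WT (−1.61 ± 0.13). *NME1*, the RNA of RNase MRP, had 374 and 490 CPM in *def1Δ* and 1875 and 1937 CPM in WT (−2.14 ± 0.15). *RPR1*, the RNA of nuclear RNase P, had 878 and 1036 CPM in *def1Δ* and 3398 and 3638 CPM in WT (−1.88 ± 0.14), and *RPM1*, that of the mitochondrial enzyme, had 10.5 and 8.09 CPM in *def1Δ* and 17.8 and 19.6 CPM in WT (−1.01 ± 0.21). *SCR1*, *NME1*, *RPR1* and *RPM1* were lower in both *def1Δ* libraries than in either WT library. In total RNA, by contrast, the median log2 fold change of the 66 small RNAs was 0.25, and it was −1.28 at 6 min and −2.04 at 90 min in labeled RNA. The pre-rRNA spacers went the other way at 24 min, with 4 of 4 entries higher. They held between 16 and 145 counts a library, and the 2 copies of each spacer are listed with the same values, so that the 4 entries are 2 measurements. *ETS1-1* had 6.87 and 8.38 CPM in *def1Δ* and 2.74 and 2.41 CPM in WT, and *ITS1-1* had 3.93 and 5.89 CPM in *def1Δ* and 1.62 and 2.28 CPM in WT. None of the 56 tRNAs tested was called, and for none of these 56 tRNAs or 66 small RNAs did the fold change at 24 min differ from that at another time at an adjusted p under 0.01.

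Heat shock chaperones were lower in *def1Δ* at 24 min. Of 35 genes on the list, which fold proteins or undo their aggregation, 13 were lower and none was higher (background 13.8% lower), with a median log2 fold change of −0.77. The median was −0.91 after the length trend was subtracted, and 15 of 33 were lower in the length-adjusted fit (background 7.04%). *SSA4* (12.0 and 12.5 CPM in *def1Δ*, 75.6 and 92.8 CPM in WT) fell by 2.77 ± 0.16 on the log2 scale. *BTN2*, a sequestrase that gathers misfolded proteins, had 24.0 and 37.0 CPM in *def1Δ* and 154 and 161 CPM in WT (−2.36 ± 0.17). *SSA1*, an abundant Hsp70 on chromosome I, had 302 and 260 CPM in *def1Δ* and 1250 and 1224 CPM in WT (−2.14 ± 0.14). The Hsp90 cochaperones *CPR6* (−2.10) and *HCH1* (−1.70) and the mitochondrial chaperonin subunit *HSP10* (−1.95) were lower as well. So were the disaggregases *HSP78* (−1.51) and *HSP104* (−1.23), the Hsp90 *HSP82* (−1.41), the small heat shock protein *HSP42* (−1.39) and *SSA2* (−1.28).

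Hsf1, the heat shock factor, binds repeats of GAA in alternating orientation. Runs of 3 units, GAA alternating with its reverse complement TTC with 2 bases of any kind between them, were searched on either strand in the 500 bases before each start codon. They were found for 86 of 5697 genes (1.51%) and for 14 of the 35 chaperones (40.0%). Of the 14 with a match 7 were lower, and of the others 6 were lower. *SSA4*, *CPR6*, *HCH1* and *HSP82* were lower and had no match. Over all 86 genes with the letters 11 were higher and 20 lower (background 15.4 and 13.8%). Stretches around the matches of 3 genes that fell are shown with the matched letters in capitals, where 2 matches overlap in each. They end 312, 215 and 270 bases before the start codon.
BTN2, chrVII:772095-772142, plus strand: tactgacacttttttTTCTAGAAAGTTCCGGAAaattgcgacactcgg
HSP78, chrIV:974458-974505, minus strand: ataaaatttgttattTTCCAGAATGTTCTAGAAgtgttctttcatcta
HSP104, chrXII:88306-88353, plus strand: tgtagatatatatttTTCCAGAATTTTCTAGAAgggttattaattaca
A match of letters is no evidence that Hsf1 was bound.

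The chaperones differed between strains at 24 min and less so, or the other way, at the other times. On the scale of 16 labeled libraries, *SSA4* in *def1Δ* was 12.7 and 13.2 CPM at 24 min and between 15.1 and 33.7 CPM at 6, 9 and 90 min, while in WT it was 79.6 and 97.7 CPM at 24 min and between 13.0 and 21.6 CPM at the others. *BTN2* in *def1Δ* lay between 16.1 and 39.0 CPM at all 4 times, and in WT it was 162 and 169 CPM at 24 min and between 14.1 and 36.4 CPM otherwise. For *SSA4* the libraries at 24 min were the highest of WT and the lowest of *def1Δ*. In *def1Δ*, 10 of the 35 chaperones (28.6%) were higher in both libraries at 24 min than in any *def1Δ* library of another time, where 7.45% of all genes were. In WT this held for 29 of 35 (82.9%), where 15.8% of all genes did. The log2 fold change at 24 min was below that at 6 min for 16 of the 35 (1.26% of all genes), below that at 9 min for 10 (0.972%) and below that at 90 min for 24 (8.24%), and above for none, by the test of the difference. The median fold change of the list was 0.39 at 6 min, −0.03 at 9 min and 0.73 at 90 min.

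Targets of the stress activators Msn2 and Msn4 showed less at 24 min alone. Of 47 markers, 6 were lower and 3 higher (background 13.8 and 15.4%), with a median of −0.38. *HSP26*, a small heat shock protein, had 10.7 and 10.5 CPM in *def1Δ* and 29.9 and 48.2 CPM in WT (−1.87 ± 0.20), and *TFS1*, a protease inhibitor, had 23.2 and 25.0 CPM in *def1Δ* and 74.3 and 72.0 CPM in WT (−1.60 ± 0.14). *CYC7*, a cytochrome c isoform, was lower (−1.39 ± 0.24), while *RIM4*, a meiotic RNA-binding protein, was higher (1.77 ± 0.18). Against the other times the list moved further, with 29 of 47 members below their fold change at 90 min (background 8.24%). In *def1Δ* 0 of 47 were highest at 24 min, where 7.45% of all genes were, and in WT 31 of 47 (66.0%) were, where 15.8% were. The proteasome genes had the same pattern, with 1 of 40 higher and 3 lower at 24 min (background 15.4 and 13.8%) and 27 below their fold change at 90 min (background 8.24%). In *def1Δ* 0 of 40 were highest at 24 min, where 7.45% of all genes were, and in WT 30 (75.0%) were, where 15.8% were. *MSN2* and *MSN4* themselves were higher in *def1Δ* (152 and 123 CPM against 54.6 and 55.3 CPM in WT for *MSN2*, and 260 and 227 CPM against 95.2 and 109 CPM in WT for *MSN4*), but their length-adjusted values of 0.65 and 0.72 did not pass the fold threshold.

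**Figure D5:**
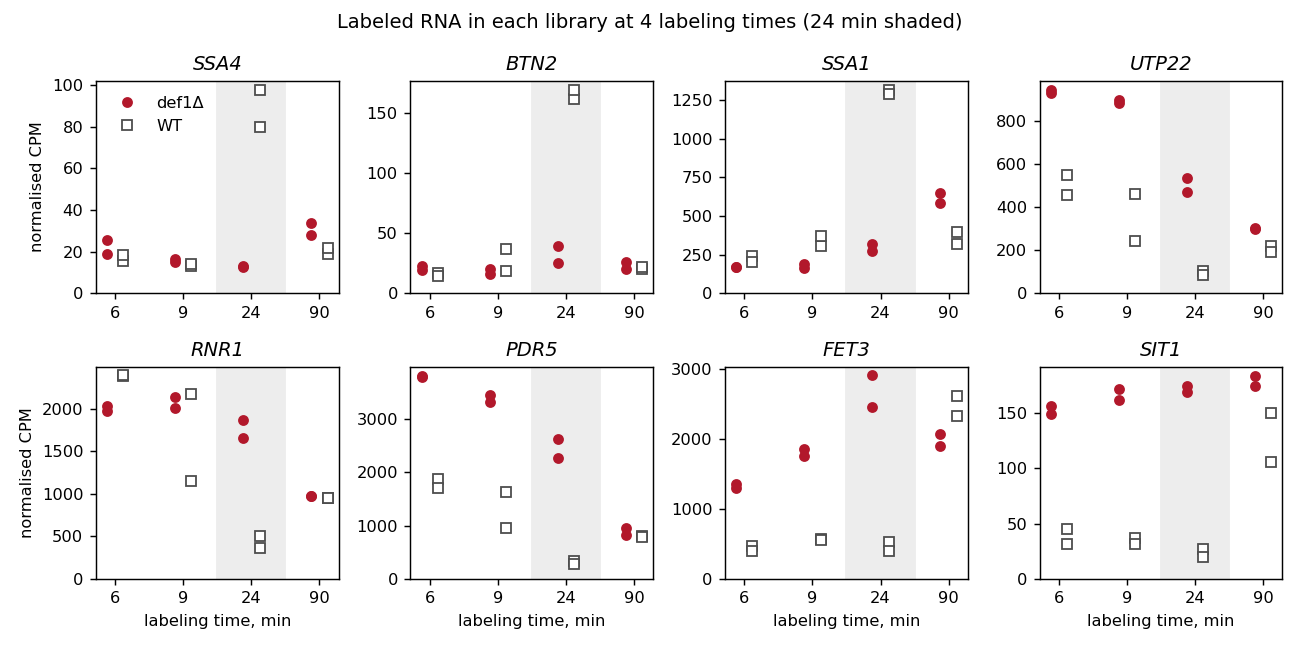
Normalised CPM of 8 genes in each labeled library at 6, 9, 24 (shaded) and 90 min, with *def1Δ* as red circles and WT as open squares, 2 libraries each. The heat shock genes *SSA4*, *BTN2* and *SSA1* are highest in WT at 24 min (79.6 and 97.7 CPM for *SSA4*), *UTP22*, *RNR1* and *PDR5* are lowest in WT at 24 min (329 and 272 CPM for *PDR5*), and *FET3* and *SIT1* are higher in *def1Δ* at 6, 9 and 24 min.

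Genes for ribosome biogenesis, whose products process pre-rRNA and assemble the subunits, were higher in *def1Δ* at 24 min. Of 125 tested 47 were higher and 3 lower (background 15.4 and 13.8%), with a median log2 fold change of 0.77. *UTP22*, of the small-subunit processome, had 508 and 445 CPM in *def1Δ* and 97.4 and 81.1 CPM in WT (2.41 ± 0.15, adjusted p = 3.44e-11). *UTP21* had 293 and 277 CPM in *def1Δ* and 85.9 and 82.8 CPM in WT (1.75 ± 0.14). *RRP12* (286 and 240 CPM in *def1Δ*, 89.0 and 69.0 CPM in WT), which exports both subunits, and the processome proteins *UTP10* (1.72), *UTP18* (1.69) and *UTP20* (1.47) were higher also. *KRR1* was lower (−1.69 ± 0.19) and lies on chromosome III. These genes are long, with a median length of 1536 bases. In the length-adjusted fit 7 of 120 were higher, near the background of 5.31%, and none was lower, and the median was 0.38.

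In the 16 libraries *UTP22* was 535 and 469 CPM in *def1Δ* at 24 min, 943 and 930 at 6 min and 297 and 302 at 90 min, while in WT it was 103 and 85.4 CPM at 24 min, 547 and 455 at 6 min and 220 and 190 at 90 min. In WT the level at 24 min was below that at 6 and 90 min, and in *def1Δ* it lay between them. Of the 125 genes 2 (1.60%) were lower in both *def1Δ* libraries at 24 min than in any other *def1Δ* library, where 6.77% of all genes were, against 69 (55.2%) in WT, where 23.4% were. The fold change at 24 min was above that at 6 min for 25 of 125 (background 1.99%), above that at 9 min for 3 (0.567%) and above that at 90 min for 38 (7.45%). Without WT replicate 2 the counts over all genes against 6 and 9 min were lower by more than 1.5 times, at 35 and 3 genes above. Summed over the list, the level was 15089 and 14954 CPM in *def1Δ* and 9313 and 9666 CPM in WT at 24 min. At 6 min it was 14976 and 16508 CPM in *def1Δ* and 14751 and 13971 CPM in WT.

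Genes for ribosomal proteins were rarely called. Of 80 large-subunit genes 0 were higher and 1 lower (*RPP1A*, −1.06), and of 57 small-subunit genes 1 was higher and 2 lower (background 15.4 and 13.8%). Their medians of −0.47 and −0.44 turned to 0.33 and 0.36 once the length trend was subtracted, so no direction can be given. *RPS14B* stood out among them with 538 and 656 CPM in *def1Δ* and 120 and 149 CPM in WT (2.15 ± 0.16). Its paralog *RPS14A*, which encodes the same ribosomal protein on chromosome III, had 180 and 190 CPM in *def1Δ* and 603 and 620 CPM in WT (−1.73 ± 0.14). In yeast Rps14 binds the *RPS14B* transcript and limits its expression. The similar sequences of the pair leave room for reads to be split between them. *RPS30B* was lower (−1.22 ± 0.18). Among 74 mitochondrial ribosomal proteins 2 were higher and 12 lower (background 15.4 and 13.8%). The 12 included *IMG1* (−1.90, on III), *MRPL33* (−1.80), *MRPL37* (−1.57) and *MRPL50* (−1.48). *IMG1*, *IMG2* and *MRPL32* of the 12 lie on chromosome III and were not in the length-adjusted fit. In that fit 5 of the other 71 were higher and none was lower (background 5.31 and 7.04%). The median of the 74 was −0.10 at 24 min and 0.68 at 90 min, and 24 of 74 were below their fold change at 90 min (background 8.24%). Subunits of RNA polymerases I and III gave 5 higher and 3 lower of 27 (background 15.4 and 13.8%).

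*SIT1* and *FET3*, genes of iron uptake, were among the 12 largest rises. Of 41 tested 10 were higher and 2 lower (background 15.4 and 13.8%), with a median log2 fold change of 0.31, and 9 were higher and 3 lower in the length-adjusted fit (background 5.31 and 7.04%). Fet3 and Ftr1 form the high-affinity iron permease, and Sit1 and Arn1 import siderophores. *FET3* (chromosome XIII, 388822 to 390732) had 2762 and 2337 CPM in *def1Δ* and 494 and 379 CPM in WT (2.55 ± 0.16, adjusted p = 1.97e-11). *FTR1* had 634 and 736 CPM in *def1Δ* and 173 and 141 CPM in WT (2.12 ± 0.15). *SIT1* (chromosome V, 27657 to 29543) had 166 and 161 CPM in *def1Δ* and 25.7 and 18.5 CPM in WT. All 3 were severalfold higher in both *def1Δ* libraries. *TIS11*, whose protein destabilises mRNAs when iron is scarce, rose by 2.17 ± 0.23 and *AFT1*, the activator of the iron regulon, by 1.62 ± 0.14. *CCC2*, the copper pump that loads Fet3, rose by 1.28 and *ARN1* by 1.25. *BIO5*, a biotin precursor transporter, was the largest fall at few counts (0.409 and 0.404 CPM in *def1Δ*, 2.74 and 2.28 CPM in WT).

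Aft1 binds a core of TGCACCC, which was searched on both strands. These letters were found within 500 bases before the start codon of 132 of 5697 genes (2.32%) and of 21 of the 41 iron genes (51.2%). Of the 21 with a match 8 were higher and 1 lower, and of those without 2 were higher and 1 lower. Over all 132 genes with the letters 22 were higher and 19 lower (background 15.4 and 13.8%). A match each of 3 uptake genes that rose is shown, with the core in capitals. *FTR1* has another match that is not shown.
FET3, chrXIII:388556-388592, plus strand: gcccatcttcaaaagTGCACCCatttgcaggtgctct
FTR1, chrV:461894-461930, minus strand: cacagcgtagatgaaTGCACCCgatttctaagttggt
SIT1, chrV:27454-27490, plus strand: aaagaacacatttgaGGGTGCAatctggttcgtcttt
Over time *FET3* was 1352 and 1302 CPM in *def1Δ* against 468 and 403 CPM in WT at 6 min. At 24 min it was 2907 and 2460 CPM in *def1Δ* against 520 and 399 CPM in WT, and at 90 min 1894 and 2066 CPM in *def1Δ* against 2619 and 2324 CPM in WT. The strains were thus apart at 6, 9 and 24 min and close at 90 min, when the WT level was several times that at 24 min. The difference between the fold changes at 24 and 90 min was 2.86 for *FET3* (adjusted p = 2.13e-07), 2.78 for *FTR1* and 2.39 for *SIT1*. Of the 41 genes 15 were above their fold change at 90 min (background 7.45%).

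The list of drug and ion exporters also holds the activator gene *PDR3*. Of its 32 genes 8 were higher and 5 lower (background 15.4 and 13.8%). The median was 0.44, and it was −0.06 when the length trend was subtracted. Of the 32 genes 12 were above their fold change at 90 min (background 7.45%). *PDR5* (chromosome XV, 619840 to 624375) had 2491 and 2153 CPM in *def1Δ* and 313 and 259 CPM in WT, and its rise of 3.02 ± 0.15 remained at 1.96 in the length-adjusted fit. *RTA1*, linked to resistance to aminocholesterol, had 28.1 and 27.9 CPM in *def1Δ* and 7.40 and 4.02 CPM in WT (2.26 ± 0.22). *PDR12*, the pump for weak acids (1.89), and *TPO2*, a polyamine exporter (1.88), were higher, and *QDR1*, a multidrug exporter (−2.17), and *PMA2*, a minor proton pump (−1.62), were lower. Pdr1 and Pdr3, the activators of the drug pumps, bind the element TCCGCGGA. It lies within 500 bases of the start codon of 37 of 5697 genes (0.649%) and of 4 of the 32 on the list (12.5%). These 4 were *PDR3*, *PDR5*, *PDR15* and *PDR16*, not all of which encode pumps, and 3 of the 4 were higher. Over all 37 genes with the element 5 were higher and 6 lower (background 15.4 and 13.8%). The matches of *PDR5* (1 of its 2) and *PDR15* are shown in capitals.
PDR5, chrXV:619512-619549, plus strand: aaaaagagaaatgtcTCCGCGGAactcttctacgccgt
PDR15, chrIV:1278816-1278853, plus strand: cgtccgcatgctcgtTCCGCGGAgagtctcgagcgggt
*PDR15* had 232 and 184 CPM in *def1Δ* and 73.4 and 76.7 CPM in WT (1.47 ± 0.15), and *PDR16* had 128 and 146 CPM in *def1Δ* and 62.6 and 63.1 CPM in WT (1.13 ± 0.14). Neither differed from its fold change at 6 min by the test of the difference. *PDR5* did, by 1.94 (adjusted p = 0.000309), and by 2.85 from 90 min, since in WT it was 1882 and 1705 CPM at 6 min, 329 and 272 CPM at 24 min and 794 and 782 CPM at 90 min.

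Cell wall genes moved in both directions, 14 higher and 9 lower of 67 (background 15.4 and 13.8%), and in the length-adjusted fit 10 were higher and 11 lower of 64 (background 5.31 and 7.04%). *SLT2*, the MAP kinase of the cell wall integrity pathway, had 393 and 390 CPM in *def1Δ* and 100 and 94.9 CPM in WT (2.00 ± 0.14). *RLM1*, a transcription factor that Slt2 activates, had 164 and 135 CPM in *def1Δ* and 43.8 and 28.9 CPM in WT (2.03 ± 0.17), and the wall protein *PST1* had 1915 and 1734 CPM in *def1Δ* and 420 and 353 CPM in WT (2.24 ± 0.15). *CHS1*, a chitin synthase, rose by 1.87 ± 0.15. *PIR3*, *PST1*, *RLM1* and *SLT2* stayed above 1 in the length-adjusted fit. The difference of the fold change at 24 min from that at 6 or 90 min did not pass for *SLT2* (0.23 and −0.14) or *RLM1* (−0.45 and −0.40).

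Of 34 cyclins and their partners 15 were higher and none was lower (background 15.4 and 13.8%), with a median of 0.92 that stayed at 0.70 when the length trend was subtracted, and 7 of 33 were higher in the length-adjusted fit (background 5.31%). *SWI4*, the DNA-binding subunit of the G1 factor SBF, had 114 and 87.7 CPM in *def1Δ* and 30.4 and 21.6 CPM in WT (1.94 ± 0.17). *CLN2*, a G1 cyclin, had 379 and 336 CPM in *def1Δ* and 113 and 96.8 CPM in WT (1.77 ± 0.15), and *CLN1* had 187 and 174 CPM in *def1Δ* and 57.7 and 53.3 CPM in WT (1.70 ± 0.14). *CLB2* (1.49) and *CLB1* (1.33), mitotic cyclins, *FAR1* (1.60), an inhibitor of G1 cyclin kinase, and *SWI6* (1.46) were higher too. *CLN3*, the G1 cyclin that acts before these and lies on chromosome I, had 231 and 179 CPM in *def1Δ* and 379 and 380 CPM in WT and was not called (−0.89 ± 0.15). The median of the list was 0.73 at 6 min, 1.20 at 9 min and 0.61 at 90 min. In *def1Δ* 5 of 34 (14.7%) were lowest at 24 min, where 6.77% of all genes were, and in WT 17 of 34 (50.0%) were, where 23.4% were.

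Of 40 genes for the DNA damage response and ribonucleotide reductase, 11 were higher and 4 lower (background 15.4 and 13.8%), and in the length-adjusted fit 2 were higher and 1 lower of 38 (background 5.31 and 7.04%). *RNR1*, the large subunit of the reductase, had 1773 and 1571 CPM in *def1Δ* and 477 and 340 CPM in WT (2.03 ± 0.16), and *POL1*, the catalytic subunit of DNA polymerase α, had 121 and 113 CPM in *def1Δ* and 27.9 and 21.7 CPM in WT (2.23 ± 0.15). Both are needed in S phase. *MAG1*, a DNA glycosylase, was lower, with 3.27 and 6.41 CPM in *def1Δ* and 23.5 and 25.0 CPM in WT (−2.29 ± 0.24). *RAD9* (1.68), *RAD5* (1.51) and *MEC1* (1.47) were higher, but their length-adjusted values were 0.67, 0.54 and 0.29. *RNR1* in the 16 libraries was 1866 and 1654 CPM in *def1Δ* and 502 and 358 CPM in WT at 24 min, while at 6 min it was 2034 and 1971 CPM in *def1Δ* and 2395 and 2397 CPM in WT. The fold change at 24 min was 2.29 above that at 6 min (adjusted p = 0.000275).

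The machinery in which Def1 acts was not uniformly changed. RNA polymerase II subunits and factors of Rpb1 turnover gave 3 higher and 3 lower of 30 (background 15.4 and 13.8%), with a median of 0.02. None was called in the length-adjusted fit. *RPO21*, which encodes Rpb1, had 1808 and 1351 CPM in *def1Δ* and 1189 and 1301 CPM in WT and was not called (0.34 ± 0.15). *RPB2*, the next largest subunit, had 553 and 495 CPM in *def1Δ* and 189 and 175 CPM in WT (1.52 ± 0.14). The small subunits *RPB10* (−1.70) and *RPB11* (−1.06) were lower, and so was *UBC4* (−1.32), a ubiquitin-conjugating enzyme. The deubiquitylases *UBP2* (1.09) and *UBP3* (1.05) were higher. Elongation factors gave 15 higher and 2 lower of 47 (median 0.68, background 15.4 and 13.8%). *THO2* (1.97), the Paf1 complex subunit *CTR9* (1.93), *SPT5* (1.91), the remodeler *CHD1* (1.86) and the FACT subunit *SPT16* (1.67) were higher, and *ELF1* (−1.66) was lower. *SPT5* had 168 and 137 CPM in *def1Δ* and 46.5 and 34.3 CPM in WT. In the length-adjusted fit 2 of 47 were higher and 0 lower (background 5.31 and 7.04%). TFIID, SAGA and Mediator genes gave 13 higher and 5 lower of 52 (median 0.60, background 15.4 and 13.8%), and 4 of 49 higher in that fit (background 5.31%).

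Among mRNA decay factors the Ccr4-Not complex, the main cytoplasmic deadenylase, gave 4 higher and 1 lower of 13 (median 0.78, background 15.4 and 13.8%). *MOT2* had 171 and 174 CPM in *def1Δ* and 60.8 and 62.3 CPM in WT (1.49 ± 0.14), *NOT5* and *NOT3* each rose by 1.40 ± 0.14, and *CAF120* rose by 1.64 ± 0.15. *CAF16* was lower (−1.16 ± 0.16). The length-adjusted value of *MOT2* was 1.03, and those of *NOT5*, *NOT3* and *CAF120* were 0.99, 0.57 and 0.68. Decapping and 5′ to 3′ decay genes gave 5 higher and 4 lower of 27 (background 15.4 and 13.8%). *DCP2*, the decapping enzyme, had 267 and 235 CPM in *def1Δ* and 71.5 and 66.3 CPM in WT (1.86 ± 0.14), and the exonucleases *RAT1* (1.27) and *XRN1* (1.22) were higher. The small ring proteins *LSM7* (−1.59), *LSM2* (−1.46) and *LSM5* (−1.37) were lower. *DHH1*, the helicase that activates decapping, had 220 and 210 CPM in *def1Δ* and 118 and 104 CPM in WT and stayed under the fold threshold (0.95 ± 0.14). Length-adjusted values of *DCP2*, *RAT1* and *XRN1* were 0.93, 0.33 and 0.15.

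Of 31 genes for defense against peroxide and superoxide, 15 were lower and none was higher (background 13.8% lower), and 4 of 28 were lower in the length-adjusted fit (background 7.04%). The median was −0.94 at 24 min and −0.05 at 90 min, and 12 of 31 were below their fold change at 90 min (background 8.24%). In *def1Δ* 2 of 31 (6.45%) were highest at 24 min, where 7.45% of all genes were, and in WT 14 of 31 (45.2%) were, where 15.8% were. *TRX2*, a cytosolic thioredoxin, had 122 and 131 CPM in *def1Δ* and 534 and 715 CPM in WT (−2.30 ± 0.16), and *TRX1* had 31.3 and 40.4 CPM in *def1Δ* and 161 and 164 CPM in WT (−2.18 ± 0.15). The glutaredoxin *GRX2* fell by 1.73 ± 0.14 on the log2 scale. *TRX3*, *GRX1* and *MXR2*, all on chromosome III, fell by 2.64, 1.77 and 2.69. Of 46 nuclear genes for the respiratory chain and ATP synthase 20 were lower and none was higher (median −0.91, background 13.8% lower). But these are short, at a median of 451.5 bases, and 1 of 46 was lower in the length-adjusted fit (background 7.04%). *COX5B*, the hypoxic isoform of a cytochrome oxidase subunit, had 4.82 and 5.37 CPM in *def1Δ* and 21.4 and 16.9 CPM in WT (−1.91 ± 0.22). *COX12* (−1.70), *COX7* (−1.65), *ATP18* (−1.52), *COX8* (−1.52) and *ATP19* (−1.48) were lower, and *COX5B* alone of these 6 passed in the length-adjusted fit (−1.18).

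Of the 6 α-specific genes tested 4 were lower in *def1Δ* and none higher (background 13.8 and 15.4%). Their median was −2.29, at levels far below those of *STE2* as given above. *STE3* fell by 2.23 ± 0.35 on the log2 scale. *MATALPHA2* on chromosome III, which represses a-specific genes, had 4.17 and 3.41 CPM in *def1Δ* and 17.6 and 19.1 CPM in WT (−2.29 ± 0.24), and is identical in sequence to the silent copy *HMLALPHA2*, listed with the same values. The 4 are thus 3 independent measurements. *AFB1* in *def1Δ* lay between 6.25 and 11.4 CPM at all 4 labeling times and in WT between 104 and 205 CPM, so the strains did not overlap at any time. The 10 a-specific genes gave none higher and 2 lower (background 15.4 and 13.8%). Among 36 pheromone response genes 8 were higher and 6 lower (background 15.4 and 13.8%). *FUS1* on III, a cell fusion protein (1.88 and 3.35 CPM in *def1Δ*, 17.0 and 18.3 CPM in WT), and *SST2*, which desensitises cells to pheromone (28.9 and 23.6 CPM in *def1Δ*, 77.1 and 70.2 CPM in WT), were lower, and *PRM10* was higher (1.79 ± 0.17).

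For the phosphate regulon 6 were higher and 4 lower of 30 (background 15.4 and 13.8%). *PHO89*, a sodium-phosphate cotransporter, had 34.1 and 48.7 CPM in *def1Δ* and 10.6 and 8.44 CPM in WT (2.11 ± 0.20). *PHM6* had 0.164 and 0.578 CPM in *def1Δ* and 4.46 and 2.95 CPM in WT (−3.20 ± 0.60). For hexose transporters 2 were higher and 3 lower of 26 (background 15.4 and 13.8%). In the length-adjusted fit 1 was higher and 6 lower (background 5.31 and 7.04%). The low-affinity transporter *HXT1* had 1031 and 892 CPM in *def1Δ* and 366 and 279 CPM in WT (1.58 ± 0.15), against the falls of *HXT6* and *HXT7*. *HXT1* in the 16 libraries was 2414 and 1846 CPM in *def1Δ* and 2031 and 2102 CPM in WT at 6 min. It stood at 1086 and 939 CPM in *def1Δ* and 385 and 294 CPM in WT at 24 min, and at 256 and 236 CPM in *def1Δ* and 230 and 236 CPM in WT at 90 min. For nitrogen catabolism and permeases 5 were higher and 6 lower of 46 (background 15.4 and 13.8%). In the length-adjusted fit none was higher and 11 of 44 were lower (background 5.31 and 7.04%). *GDH2*, the NAD-linked glutamate dehydrogenase, was higher at 1.51 ± 0.16, although its length-adjusted value was 0.55, and *MEP1*, an ammonium permease (−2.27 ± 0.16), and *DAL1*, which degrades allantoin (−2.78 ± 0.40), were lower. None of the 22 aminoacyl-tRNA synthetases was called, with values between −0.41 and 0.97.

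For all lists that follow, the background over all genes tested at 24 min was 15.4% higher and 13.8% lower. Amino acid biosynthesis gave 4 higher and 13 lower of 73, and methionine and sulfate assimilation 4 and 8 of 37. Thiamine and vitamin B6 gave 2 and 7 of 23, and sterol synthesis 0 and 5 of 30. These 4 lists kept medians below 0 when the length trend was subtracted (between −0.60 and −0.41). In the length-adjusted fit 1 was higher and 14 lower of 68 for amino acids, 1 and 11 of 36 for methionine, 2 and 7 of 22 for thiamine and 0 and 6 of 29 for sterols, where the background was 5.31 and 7.04%. Fatty acid and phospholipid synthesis gave 7 higher and 4 lower of 40, autophagy 4 and 9 of 44, and glycolysis and fermentation 1 and 6 of 33. For the TCA cycle it was 2 and 2 of 30, for gluconeogenesis and the glyoxylate cycle 3 and 4 of 31, for trehalose 2 and 0 of 9 and for glycogen 1 and 0 of 16. Against 90 min, the fold change at 24 min was below for 11 of 33 in glycolysis, 8 of 16 in glycogen and 7 of 37 in methionine (background 8.24%), and above for 10 of 40 in fatty acids (background 7.45%). Exosome, Ski and nonsense decay genes gave 10 higher and 1 lower of 35. A list of 21 genes named for the Puf RNA-binding proteins, a smaller family, gave 8 and 1. For translation initiation factors it was 8 and 3 of 33. But in the length-adjusted fit 1 of 34, 2 of 20 and 3 of 32 on these lists were higher (background 5.31%). Translation elongation and termination factors gave 2 and 3 of 19. Purine synthesis gave 3 higher and 1 lower of 25, pyrimidine synthesis and uracil salvage, through which 4tU enters RNA, 1 and 2 of 21, and histones and their chaperones 4 and 3 of 22. Old yellow enzymes and aryl-alcohol dehydrogenases gave 1 and 4 of 16, haploid silencing genes 2 and 0 of 9 and the auxotrophic markers 1 and 3 of 9, among the last *LEU2* on chromosome III. Of 13 seripauperin genes, which are near-identical copies, none was called. Of 23 genes of the mitochondrial genome 6 were lower and 1 was higher (median −0.64).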

How the data were processed

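Labeled RNA was captured after 4tU labeling of *def1Δ* and WT cells, rRNA was depleted, and stranded paired-end libraries were sequenced by the authors. The authors aligned reads with STAR to the R64 genome and deposited expected counts per gene from RSEM (version 1.2.28) for labeled and total RNA, which were rounded to whole numbers here. For the input RNA of ribosome profiling the deposited table holds whole read counts, and its aligner is not given in the sources used here. The submitters' processing notes also name FastQC, HISAT2, featureCounts and DESeq2. Normalised reads in the study's supplement gave the *S. pombe* scaling factors, used only as an alternative.

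Genes that reached 15 counts summed over the libraries at 24 min were fitted with edgeR's quasi-likelihood test (edgeR 4.0.16, R 4.3.3) with TMM scaling and no block, and p-values were adjusted by Benjamini-Hochberg over all 6174 genes. Differences between labeling times were interaction terms in a fit of the 16 labeled libraries at 6, 9, 24 and 90 min. On simulated counts 198 of 200 genes changed by a log2 fold of 2 were recovered with 0 false calls among 6143 genes, and for the difference of 24 from 90 min 192 of 200 were, with 2 false calls among 6174. The changed genes were above a minimum expected count, with as many raised as lowered. The simulation held no length trend, no shift of chromosomes and far fewer changed genes than were called here. It therefore cannot show how many calls in the data are right. Names and coordinates came from RefSeq for R64 (6167 of 7127 entries matched), and upstream letters were searched in 500 bases before the start codon.

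Named genes were *DEF1* and its neighbours, the called protein-coding genes that rose most and fell most, 12 in each direction (mean of at least 100 counts, strains not overlapping), and up to 6 called or defining members of each list. *HSP78*, *HSP82*, *HSP104*, *HSP42*, *SSA2*, *HXT7*, *PDR3*, *PDR15*, *PDR16*, *CCC2*, *ARN1*, *UTP20*, *CLB1*, *MSN2*, *MSN4*, *SNR40*, *SNR13*, *SNR81*, *STE2*, *MFA1*, *CLN3* and the abundant genes of chromosomes I and III were chosen after their values were seen. The members and lists were chosen with earlier results of these data known. Alternatives were another scaling, filter, tool or threshold, all labeled libraries in 1 fit, a replicate block, each library left out, and, added after the data had been seen, a length offset and chromosomes I and III left out.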

Additional observations from a re-analysis of the deposited data

Results flagged for a closer look

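The strain difference at 24 min differed from that at other labeling times, by a test of the difference itself (interaction term, edgeR's quasi-likelihood test, adjusted p under 0.01 and a log2 difference beyond 1). The log2 fold change, *def1Δ* over WT, was above that at 6 min for 123 genes and below it for 78, above that at 9 min for 35 and below it for 60, and above that at 90 min for 460 and below it for 509. Without WT replicate 2 these became 35 and 41 against 6 min, 3 and 12 against 9 min, and 300 above that at 90 min. Without *def1Δ* replicate 1 there were 33 below 9 min and 304 above 90 min, without *def1Δ* replicate 2 there were 45 below 6 min and 26 below 9 min, and without WT replicate 1 there were 29 below 9 min.

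Among stress genes the difference, 24 min minus 6 min, was −3.15 for *SSA4*, −2.80 for *BTN2*, −1.74 for *SSA1* and −2.13 for *HSP26*. Against 90 min it was −3.39 for *SSA4*, −2.49 for *BTN2*, −2.93 for *SSA1* and −4.75 for *HSP26*. *HXT6*, whose reads may be shared with *HXT7*, had −6.06 against 90 min.

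In the other direction, *PDR5* had 1.94 against 6 min and 2.85 against 90 min, *UTP22* had 1.51 and 1.87, and *RNR1* had 2.29 and 2.00. *FET3* had 2.86 against 90 min. In WT, *SSA4*, *BTN2*, *SSA1* and *HSP26* were highest, and *PDR5*, *UTP22* and *RNR1* lowest, in the libraries at 24 min.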

How the results depend on the processing

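The counts of 953 higher and 851 lower genes became 893 and 904 with DESeq2's size factors, 875 and 857 with DESeq2 itself, and 822 to 1050 higher and 785 to 926 lower when each library was left out. They became 1826 and 52 with the *S. pombe* factors, 299 and 523 with a length offset, 296 and 392 with the offset and chromosomes I and III left out, and 2199 and 1921 at an adjusted p under 0.05 with no fold limit. With library totals they were 1308 and 594. The all-gene median was 0.24 with library totals and 1.05 with the *S. pombe* factors. Over the left-out libraries the time differences ranged from 35 to 110 genes above and 41 to 62 below 6 min, 3 to 49 above and 12 to 33 below 9 min, and 300 to 499 above and 395 to 572 below 90 min. The correlation of same-numbered deviations was 0.127, from 2 pairs. With 2 libraries for each strain it cannot tell whether the replicate numbers pair the samples. A fit with the replicate block gave 967 higher and 899 lower, changed none of 156 named genes' calls, and gave 140 and 88, 46 and 73, and 476 and 523 genes above and below 6, 9 and 90 min. Of the 156 genes 60 lost their call with the *S. pombe* factors and 60 of 155 with the length offset. The sign turned for *MDM35* (0.0599), *RPM1* (0.0260) and *SNR40* (0.58) with the *S. pombe* factors, for *SNR40* on leaving out single libraries (range −1.04 to 0.0728, with 0.0728 without WT replicate 2) and under both length offsets (0.76), and for *RPO21* under both length offsets (−0.77). Beyond what the offset and the missing library remove by construction, the cause was not tested. Of 34 gene lists with a median at least 0.2 from that of all genes, 8 turned sign under the length offsets, among them both ribosomal protein lists and the exporters, and none under the other alternatives. Having 2 libraries for each strain and few counts for the low genes (*BIO5*, *PHM6*, the spacers) limit the precision.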

Other observations

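Genes of the mitochondrial genome had a far lower median in total RNA than in the other sets of libraries. Over the 23 tested, the median log2 fold change of *def1Δ* over WT was −0.64 in labeled RNA at 24 min and −6.94 in total RNA. It was −0.36, −0.39 and 0.17 in labeled RNA at 6, 9 and 90 min. In the input RNA of ribosome profiling, which is not labeled either, it was −0.22 over the genes with a value there. What set total RNA apart was not tested. *COB*, for cytochrome b, had 120 and 72.0 CPM at 24 min in *def1Δ*, against 230 and 277 CPM in WT. These genes made up 0.199 and 0.155% of the labeled counts in *def1Δ* and 0.289 and 0.343% in WT.

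Nuclear ORFs outside chromosomes I and III were also split in 5 groups of equal size by their WT level at 6 min against 90 min. The group with the lowest ratio, whose RNA was relatively more abundant after long labeling, had a median log2 fold change of −0.73 at 24 min, and the group with the highest ratio had 0.66. These groups of genes differ in gene length (medians of 594 and 1893 bases), and after the length trend was subtracted the medians were −0.19 and 0.20. Near chromosome ends the shift was small, with a median of −0.01 within 10000 bases of an end, −0.15 at 10000 to 25000 bases and 0.14 beyond 100000 bases.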
